A study of Mus musculus with 4 samples.

Results

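The subunits of the mitochondrial respiratory chain and of ATP synthase were examined in mouse liver, comparing control mice with mice whose liver lacks ROCK1 (liver-specific ROCK1 KO). ROCK1 is a protein kinase. Members were all probes whose annotated gene symbol begins with Nduf, Uqcr, Cox4 to Cox8 or Atp5, or is Sdha, Sdhb, Sdhc, Sdhd, Cyc1 or Cycs. This rule used no measured value and gave 110 of 25697 probes, which represent 87 of the 16593 genes with a symbol on the array. No probe carried the symbol Sdha, and no subunit encoded in mitochondrial DNA was represented, so every member is a nuclear gene. All mice ate normal chow for 16 weeks. Each group was read on 2 single-colour Illumina bead arrays. The promoter that drove the liver-specific deletion, the age of the mice and whether the arrays came from separate animals are not given in the sources used here, so the p-values below cover nothing beyond the spread of these 4 arrays, which may be technical.

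The respiratory chain sits in the inner mitochondrial membrane. Complex I takes electrons from NADH and complex II takes them from succinate. Both pass them through ubiquinone to complex III, and cytochrome c carries them on to complex IV, which reduces oxygen. Complexes I, III and IV pump protons, and complex V, the ATP synthase, uses the returning protons to make ATP. Hepatocytes depend on this pathway for gluconeogenesis, urea synthesis and the oxidation of fatty acids. In bulk tissue, fewer cells of a type and less RNA per cell cannot be told apart.

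Values are log2 of the intensity plus 16 after quantile normalisation, with background left in, and every difference is ROCK1 KO minus control on that scale. A probe was called when limma's two-sided p, adjusted over all 25697 probes, was under 0.05. A probe counted as above background on an array when its value was over 7.85. Rock1 itself read 8.51 and 8.51 on the control arrays against 8.06 and 7.91 on the KO arrays (difference -0.53, SE 0.12, limma adjusted p = 0.0181). Before normalisation the background, read as the mode of the intensities, stood at 127.8 and 124.1 on the control arrays against 180.0 and 181.0 on the KO arrays. Its part in the differences was not tested. Arrays correlated at 0.991 within each group and at 0.975 to 0.976 between groups across probes, which are not independent replicates.

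The chain moved in both directions. Of the 110 member probes, 10 rose in ROCK1 KO liver, 13 fell and 87 did not pass the test. Thus 20.9% of the members were called, against 8.02% of all probes, of which 3.69% were called higher and 4.32% lower. Most members are bright, however: 94 were above background on at least 2 arrays, and 24.5% of those were called. The share called among all 9587 probes that passed this same filter was 18.3%, with 8.14% higher and 10.2% lower. Against that background the share of called members was modestly larger, and no test of the set was made. The filter does not match brightness, with a median mean log2 value of 12.38 for those members and 9.15 for those probes. Over a mean of 12, 14.5% of members were called, against 21.8% of all probes. Between the background limit and 12 the shares were 36.8% and 16.8%. That division was chosen after the values were seen. The median difference over the members was 0.07, beside 0.0011 over all probes, and single members ran from -1.41 to 0.70. With 75th percentile scaling the members' median (0.06) lay below that of all probes (0.08), so its side of the array median depends on the scaling. The arrays of the groups did not overlap at 83 members, 49 of them higher and 34 lower in KO (75.5%, against 51.9% of all probes). Among those that passed the filter on background the shares were 78.7% of members and 64.6% of all probes. At limma's unadjusted p under 0.05, 34 members were higher and 19 lower, beside 2944 and 2700 of all 25697 probes. With the filter on background, 33 and 18 of 94 members stood beside 1873 and 1807 of 9587 probes. When each gene was represented by its brightest probe, 9 of the 87 genes were higher, 9 lower and 69 not called. In a fit of the brightest probes alone, 10 member genes were called higher and 9 lower. Over the whole array that fit called 750 of 16593 genes higher and 803 lower.

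**Figure D1:**
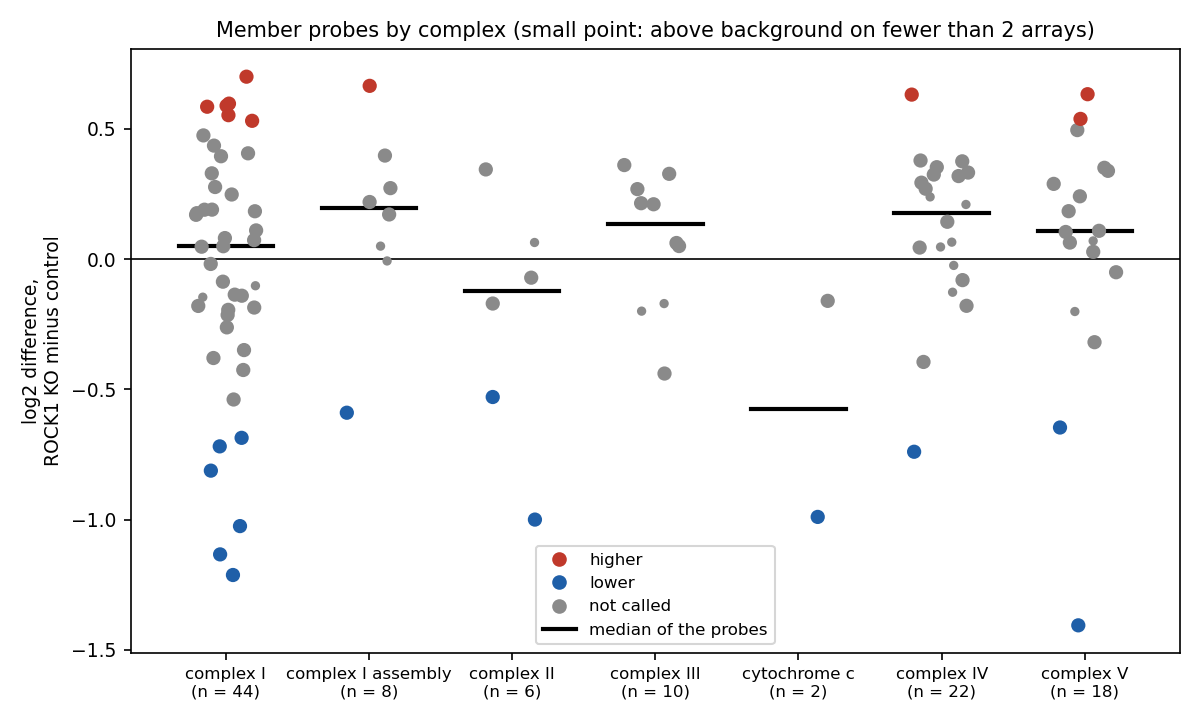
Log2 difference (ROCK1 KO minus control) of each of the 110 member probes, grouped by complex, with called and uncalled probes marked. Complex I, its assembly factors, complex IV and complex V each hold probes called in both directions, while complex III holds no called probe.

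Complex I, the largest enzyme of the chain, gave the most calls, with 6 of its 44 probes higher and 6 lower (34 genes, median difference 0.05). Among the Ndufa subunits 3 of 13 probes rose and 1 fell (median 0.28), while among the Ndufb subunits, which belong to the membrane arm, 1 of 12 rose and 4 fell (median -0.12). The Ndufc subunits had 1 rise in 3 probes, the Ndufs subunits 1 rise and 1 fall in 10, and the Ndufv subunits no call in 5. Those Ndufv subunits, which sit where NADH is oxidised, had 1 probe with an unadjusted p under 0.05. For comparison, the whole array gave 8.14% higher and 10.2% lower calls among the probes passing the filter on background. At limma's unadjusted p under 0.05, 1873 of those 9587 probes were higher and 1807 lower. The Ndufa probes were also brighter, with a median mean log2 value of 12.96, against 9.94 for the Ndufb probes. Whether the groups of subunits differ from each other was not tested, nor was the part of brightness in their counts.

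Of the complex I falls, Ndufb9, an accessory subunit with the LYR motif, read 10.80 and 10.77 in control and 9.66 and 9.86 in KO. Both KO arrays were below both control arrays, by 1.02 (SE 0.15, limma adjusted p = 0.00242). Ndufb4 read 9.32 and 9.09 against 8.26 and 8.54 (difference -0.81, SE 0.15, limma adjusted p = 0.00667). Ndufb2 read 9.99 and 9.79 against 9.20 and 9.15 (difference -0.72, limma adjusted p = 0.0128). Both are small accessory subunits of the membrane arm, and the groups did not overlap for either. Ndufb5, of the same arm, read 10.86 and 10.76 against 9.89 and 10.36, a difference of -0.69 with a limma adjusted p of 0.0409. Its KO arrays lay apart from each other by more than its control arrays did, yet both were below control.

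Of the complex I rises, Ndufa6, another accessory subunit with the LYR motif, read 13.48 and 13.43 in control and 14.02 and 14.09 in KO. The groups were well separated, with a difference of 0.60 (SE 0.11, limma adjusted p = 0.00855). Ndufa1, a small membrane subunit needed for assembly of the enzyme, read 13.31 and 13.21 against 13.96 and 13.74 (difference 0.59, limma adjusted p = 0.0152). Ndufb3 was the only Ndufb probe called higher, with 11.64 and 11.58 against 12.15 and 12.23 (difference 0.59, limma adjusted p = 0.0307). For both genes the KO arrays were the higher ones without overlap. Ndufc1 read 12.73 and 12.74 against 13.41 and 13.16 on its called probe (difference 0.55, limma adjusted p = 0.0303). The remaining rise was a probe annotated to Ndufs5-ps, a symbol of a pseudogene of Ndufs5, with 11.87 and 11.82 against 12.45 and 12.30 (difference 0.53, limma adjusted p = 0.0460). Signal from the parent gene and from the pseudogene cannot be told apart by symbol, so the source of that value is uncertain.

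Core subunits that carry the redox centres gave no call. Ndufv1, which binds the flavin and NADH, read 13.48 and 13.49 against 13.23 and 13.39 (difference -0.18, limma adjusted p = 0.444). The probe for Ndufs1, the large iron-sulfur subunit, was not above background on any array. Ndufa2, an accessory subunit of the matrix arm, differed by 0.44 and missed the threshold (limma adjusted p = 0.0665). Ndufa13, the gene with the brightest complex I probe, read 14.43 and 14.41 against 14.59 and 14.39, and its groups overlapped (difference 0.07).

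The assembly factors of complex I, proteins that build the enzyme and leave it, were read by 8 probes of 5 genes, with 1 rise and 1 fall. Ndufaf4 rose, with 10.59 and 10.43 in control and 11.39 and 10.96 in KO (difference 0.67, SE 0.18, limma adjusted p = 0.0442). Ndufaf5 had a probe (ILMN_1216813) at 8.13 and 8.06 in control that was not above background on either KO array, at 7.39 and 7.63. That probe was at least 1.19-fold lower in KO (limma adjusted p = 0.00826). Its other probe (ILMN_2747677) lay on the opposite side, at 8.27 and 8.19 against 8.70 and 8.56 (difference 0.40, limma adjusted p = 0.0723). Ndufaf1 differed by 0.27 and Ndufaf3 by 0.22, and neither was called.

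Complex II, which also serves the TCA cycle, had 2 falls among 6 probes of 3 genes, and its only higher probe at an unadjusted p under 0.05 belonged to Sdhc. Sdhd, a membrane anchor that helps to bind ubiquinone, read 10.48 and 10.35 in control and 9.40 and 9.44 in KO. Its groups were separated by far more than the arrays of a group differed, with a difference of -1.0 (SE 0.15, limma adjusted p = 0.00221). Sdhc, the other anchor, read 12.42 and 12.42 against 12.59 and 12.94, and its difference of 0.34 was not called (limma adjusted p = 0.213). Sdhb, the iron-sulfur subunit, had 3 probes. Its dimmest probe (ILMN_2592389) was called lower, with 8.14 and 8.10 in control and no KO array above background (7.53 and 7.65, at least 1.21-fold lower, limma adjusted p = 0.00991). Its 2 brighter probes differed by -0.17 and -0.07 and were not called, so the fall rests on the probe nearest to background.

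Complex III gave no call in 10 probes of 9 genes by limma's adjusted p. At an unadjusted p under 0.05, 4 of its probes were higher and 2 lower. Over the array these numbers were 2944 and 2700 of all 25697 probes, and 1873 and 1807 of the 9587 above background on at least 2 arrays. The core proteins Uqcrc1 (difference 0.33) and Uqcrc2 (0.06) and the haem protein Cyc1 (0.05) all missed the threshold. Uqcr11, a small subunit, read 13.91 and 14.00 against 14.32 and 14.32 (difference 0.36, limma adjusted p = 0.0623). Uqcrb, a subunit close to a ubiquinone site, read 12.55 and 12.68 against 12.12 and 12.24 (difference -0.44, limma adjusted p = 0.0863). These groups did not overlap for either gene, one higher and the other lower in KO. Uqcr10, with the brightest complex III probe, had differences of 0.21 on both of its probes.

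Cytochrome c (Cycs) had the smallest adjusted p of the members. Its probe ILMN_3155380 read 8.96 and 9.04 in control and 8.06 and 7.97 in KO, a difference of -0.99 (SE 0.12, limma adjusted p = 0.000875). Both KO arrays were lower than both control arrays and lay just above the background limit of 7.85. The other probe (ILMN_3076459) read 8.29 and 8.06 against 7.94 and 8.09, overlapped between groups and was not called (difference -0.16, limma adjusted p = 0.493).

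Complex IV had 1 rise and 1 fall among 22 probes of 19 genes (median 0.18). Cox6a1, the broadly expressed form of subunit 6a, rose on its probe ILMN_2605400, with 13.03 and 13.03 in control and 13.64 and 13.70 in KO (difference 0.63, SE 0.12, limma adjusted p = 0.00878). Its brighter probe (ILMN_2638875) read 14.10 and 13.96 against 14.14 and 14.21 and was not called (difference 0.14). Cox7b, a small accessory subunit, read 9.16 and 9.18 against 8.39 and 8.47 and fell (difference -0.74, SE 0.13, limma adjusted p = 0.00522). For the called probes of both genes the arrays of a group were close together and the groups far apart.

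Over the 14 probes of the 12 broadly expressed complex IV genes, with the called Cox6a1 and Cox7b probes among them, the median difference was 0.28. At an unadjusted p under 0.05, 8 of these probes were higher and 2 lower. Of the 9587 probes of the array above background on at least 2 arrays, 1873 were higher and 1807 lower at that level. Cox7c differed by 0.38 (limma adjusted p = 0.0749) and Cox6b1 by 0.33 on its brighter probe (limma adjusted p = 0.0800). Ndufa4, first named as a complex I subunit and later found in cytochrome c oxidase, is counted here and differed by 0.29 (limma adjusted p = 0.101). Cox4i1 (0.04) and Cox5a (-0.18), the subunits 4 and 5a, were not called. The 7 tissue-restricted isoforms Cox4i2, Cox6a2, Cox6b2, Cox7a1, Cox7b2, Cox8b and Cox8c, known from muscle, lung or testis, gave no call in 8 probes. At an unadjusted p under 0.05, 2 of the 8 were higher and 0 lower, beside 2944 and 2700 of all 25697 probes. Among them Cox7a1 alone was above background, at 7.96 and 7.94 against 8.32 and 8.21 (difference 0.32, limma adjusted p = 0.107).

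Complex V had the member with the largest difference and 2 calls in each direction among 18 probes of 16 genes. Atp5a1, the alpha subunit of the catalytic F1 head, read 12.21 and 12.41 in control and 10.65 and 11.16 in KO. Both KO arrays were far below both control arrays, by 1.41 (SE 0.19, 2.65-fold lower, limma adjusted p = 0.00129). Its partner in the head, the beta subunit Atp5b, read 15.20 and 15.24 against 15.51 and 15.50, and the difference of 0.29 was not called (limma adjusted p = 0.0545). Each of these genes had 1 probe, so no other probe could be set beside either value. Atp5e, the epsilon subunit of the central stalk, read 9.30 and 8.92 against 8.41 and 8.52 and fell (difference -0.65, limma adjusted p = 0.0227).

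The complex V rises lay outside the F1 head. Atp5l, subunit g of the membrane part, read 11.80 and 11.82 against 12.52 and 12.37 (difference 0.63, limma adjusted p = 0.0208). Atp5j, coupling factor 6 of the peripheral stalk, read 14.01 and 14.03 against 14.65 and 14.46 on its brightest probe (difference 0.54, SE 0.11, limma adjusted p = 0.0119). Both were higher on each KO array. Atp5j2, subunit f, differed by 0.35 and missed the threshold (limma adjusted p = 0.0545). Atp5g3, which encodes the c subunit of the rotor ring, was the brightest member probe and differed by 0.11 (15.61 and 15.63 against 15.71 and 15.76).

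**Figure D2:**
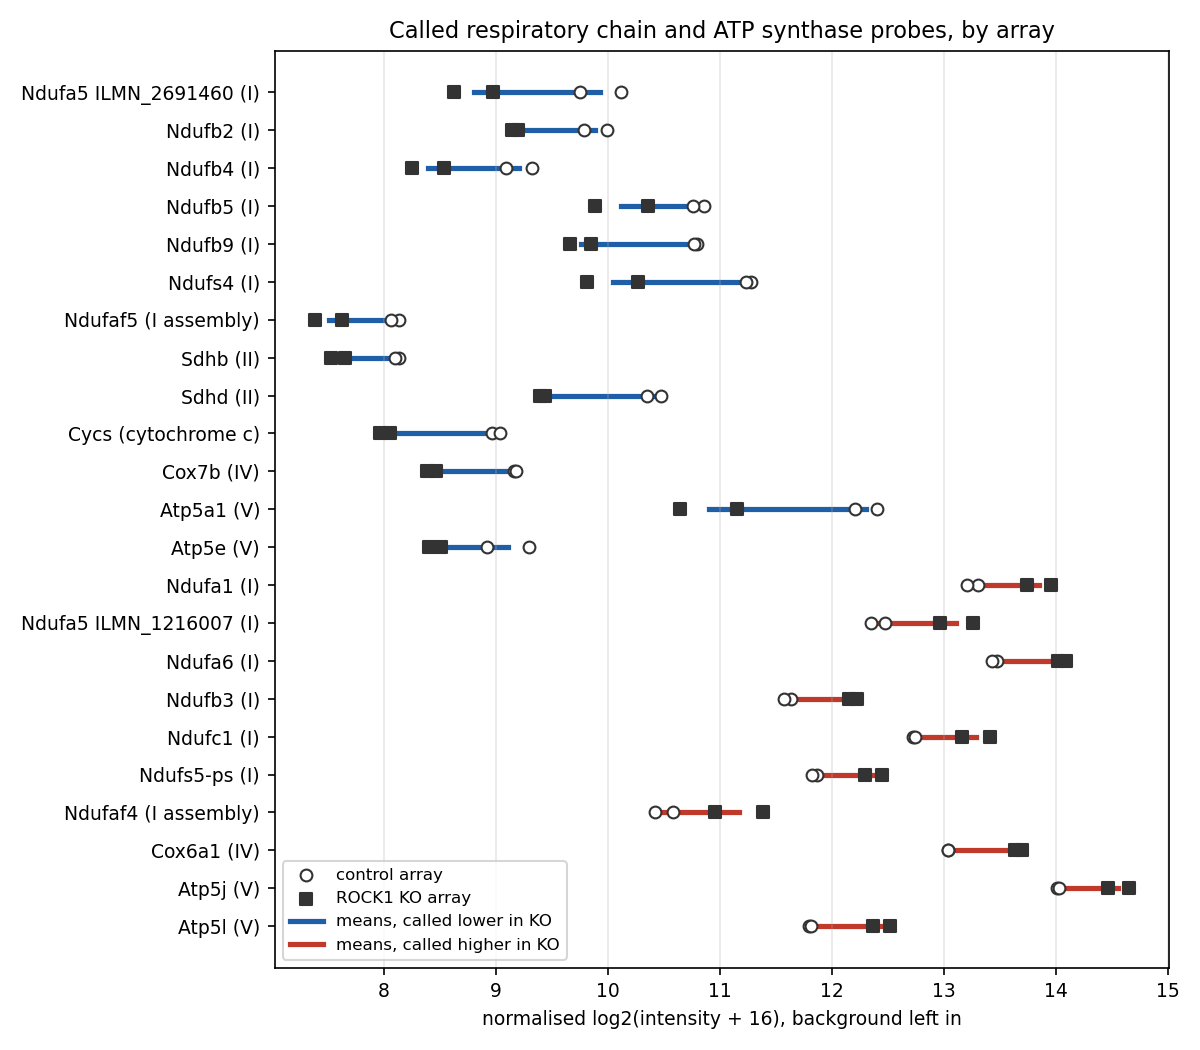
Normalised log2 intensity of the 23 called member probes on each control and ROCK1 KO array. Probes called lower lie between 7.39 and 12.41 on all arrays, and probes called higher between 10.43 and 14.65.

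The calls fell on different sides according to how bright the probe was. Brightness is a property of the probe as well as of the transcript, and the division at 12 was chosen after the values were seen. Of the 55 member probes with a mean over 12, 8 were called higher and 0 lower by limma, with 1 lower at an unadjusted p under 0.05. In that band 46 of 55 differences were above 0 and the median was 0.24, beside 517 of 969 and 0.028 for all probes. Of the 38 member probes between the background limit and 12, 2 were called higher and 12 lower. Their median was -0.18, beside 0.023 for all probes of that band. All probes of the array did not show this division: over 12, 10.2% of 969 probes were called higher and 11.6% lower, and between the limit and 12, 7.17% of 8173 were called higher and 9.59% lower. Uqcrb ILMN_2497616, the 1 probe over 12 that was lower at an unadjusted p, passed limma's adjusted threshold under either filter on dim probes and without the intensity trend (adjusted p of 0.0462, 0.0488 and 0.0368), and had an adjusted p of up to 0.306 over the other settings with all 4 arrays or 1 left out. With 75th percentile scaling in place of quantile normalisation, 4 rather than 8 of the bright members were called higher. That count was 1 without control replicate 1, 0 without control replicate 2, 2 without ROCK1 KO replicate 1 and 7 without ROCK1 KO replicate 2.

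**Figure D3:**
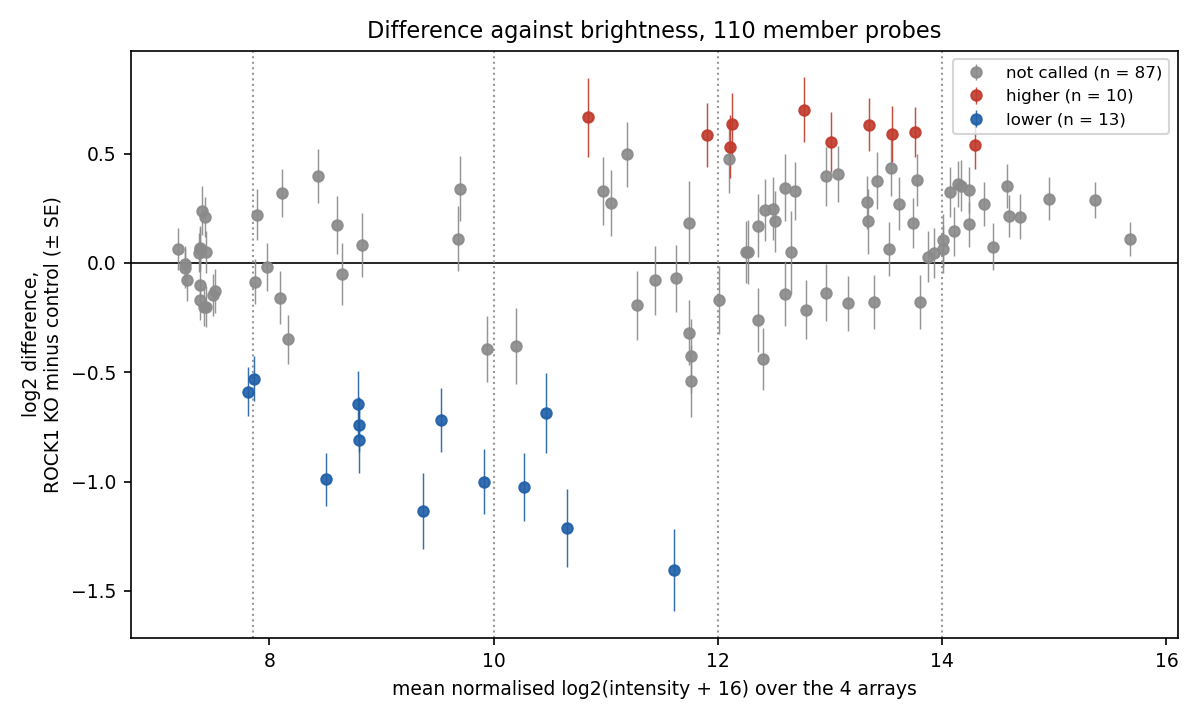
Log2 difference (ROCK1 KO minus control) of each member probe against its mean normalised log2 intensity over the 4 arrays, with called probes marked. Over a mean of 12, 46 of 55 differences lie above 0, beside 517 of 969 for all probes of the array. Of the 13 lower calls, 12 lie between the background limit and 12.

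Probes of the same gene did not always move together. Of the 17 member genes with at least 2 probes, 13 had at least 2 above background, and in 4 of those the differences were spread by 0.5 log2 units or more. Ndufa5, a subunit of the matrix arm of complex I, was called in both directions. Its bright probe (ILMN_1216007) read 12.35 and 12.47 in control and 13.26 and 12.96 in KO, a rise of 0.70 (SE 0.15, limma adjusted p = 0.0142). Its dim probe (ILMN_2691460) read 9.75 and 10.12 against 8.63 and 8.97, a fall with a difference of -1.13 (SE 0.17, limma adjusted p = 0.00265). On each probe the groups did not overlap, and the spread of 1.83 between them was the widest of any member gene. The files give no probe positions, so which transcripts each probe reads is not analysed here.

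Ndufs4, a late-assembling subunit of complex I whose loss causes Leigh syndrome in people, had 4 probes with a spread of 1.26. The called probe (ILMN_2663694) read 11.28 and 11.24 against 9.82 and 10.27 (difference -1.21, SE 0.18, limma adjusted p = 0.00206). The brightest (ILMN_1234521) read 12.55 and 12.71 against 12.99 and 12.36, so its groups overlapped (difference 0.05). The remaining probes lay between them, with differences of -0.54 (limma adjusted p = 0.0727) and -0.43 (limma adjusted p = 0.164). Ndufaf5 (spread 0.99) and Cycs (0.83) are described above. The other 9 genes had spreads under 0.5, from 0.0041 for Uqcr10 to 0.49 for Cox6a1. Among these, Ndufc1 and Atp5j had a second probe above background that was not called, with differences of 0.33 and 0.34 in the direction of the called one.

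**Figure D4:**
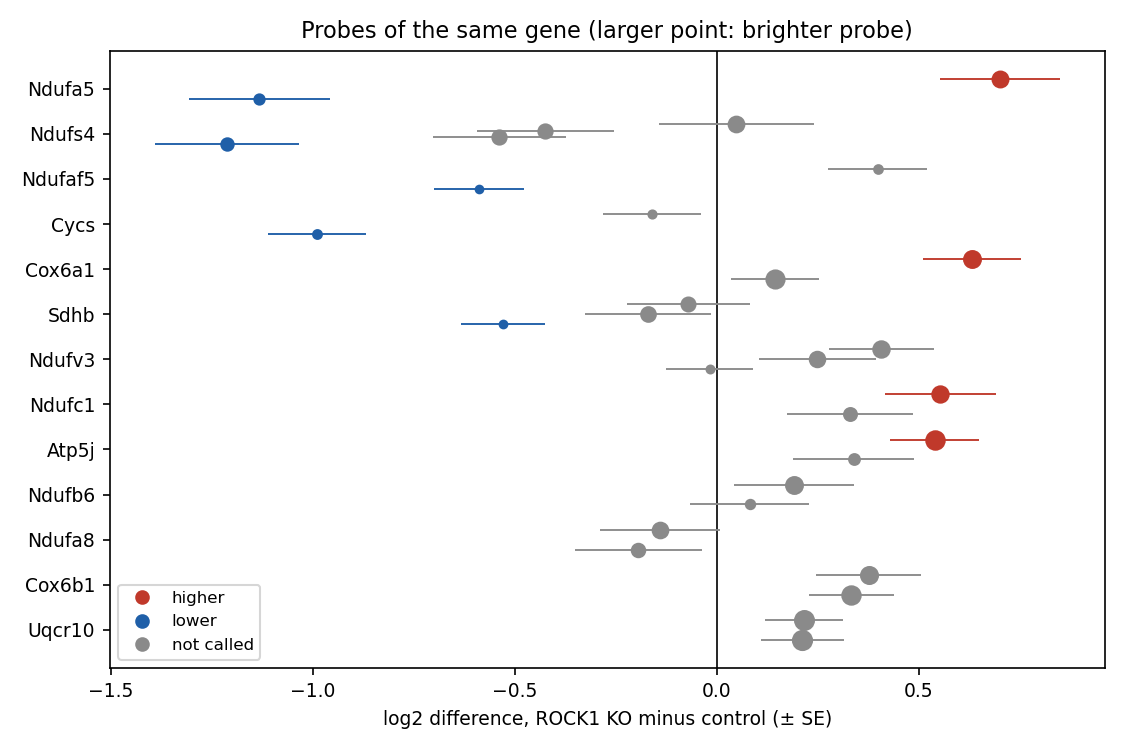
Log2 difference (ROCK1 KO minus control) of every probe above background on at least 2 arrays, for the 13 member genes with at least 2 such probes. Ndufa5 spans -1.13 to 0.70 and Ndufs4 spans -1.21 to 0.05, while both Uqcr10 probes lie at 0.21.

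Single arrays were left out in turn, which leaves 1 array in a group and takes the spread from the other group, so the lone array is assumed to vary alike. Calls became fewer over the whole array as well, from 949 to between 294 and 799 higher and from 1111 to between 488 and 880 lower. Of the 13 lower calls, 7 passed in all 4 of those fits (Atp5a1, Cox7b, Cycs, the dim Ndufa5 probe, Ndufb9, the called Ndufs4 probe and Sdhd). Of the 10 higher calls 0 did so by limma's adjusted p. Ndufa6 held in 3 of the fits and Cox6a1 in 2. Their differences stayed between 0.56 and 0.64 and between 0.61 and 0.66 throughout. Without control replicate 2, 0 members were called higher, with 20 higher at an unadjusted p under 0.05, while 294 of all probes were called higher in that fit. Without control replicate 1 there were 1 higher and 7 lower among the members, and 333 and 488 among all probes. Without ROCK1 KO replicate 1 there were 2 higher and 12 lower, and without ROCK1 KO replicate 2 there were 8 higher and 13 lower. Scaling to the 75th percentile ended the rises of Ndufa6, Atp5j, Ndufc1 and Ndufs5-ps and the fall of Sdhb, and the largest offset tried before log2 likewise ended that of Ndufs5-ps. Whether falls and rises differ in this respect was not tested.

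Promoter sequence is shown for 4 of the called genes whose windows held the letters of nuclear respiratory factor 1 (NRF1). NRF1 is a transcription factor known for its sites at respiratory chain genes. Ndufaf4, which rose, also held them, 113 bases before the gene start, and is not printed. The windows shown are the 250 bases before the gene start in RefSeq, build GRCm38.p6. All are on the minus strand and printed 5′ to 3′, with motif matches in capitals. They are Cox6a1 (chr5:115348959-115349208), Ndufb4 (chr16:37654369-37654618), Sdhd (chr9:50603850-50604099) and the upstream of the 2 Ndufa5 windows (chr6:24527691-24527940).
Cox6a1: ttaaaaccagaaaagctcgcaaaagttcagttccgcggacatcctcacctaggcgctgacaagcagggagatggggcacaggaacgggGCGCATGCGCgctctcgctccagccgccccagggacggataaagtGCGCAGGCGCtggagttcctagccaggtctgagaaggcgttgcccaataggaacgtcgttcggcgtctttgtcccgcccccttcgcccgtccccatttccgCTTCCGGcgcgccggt
Ndufb4: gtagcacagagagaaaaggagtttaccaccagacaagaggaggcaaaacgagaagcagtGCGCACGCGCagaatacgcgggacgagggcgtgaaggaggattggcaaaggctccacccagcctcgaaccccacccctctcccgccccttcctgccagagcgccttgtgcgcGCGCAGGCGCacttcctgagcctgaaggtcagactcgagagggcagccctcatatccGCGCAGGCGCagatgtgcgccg
Sdhd: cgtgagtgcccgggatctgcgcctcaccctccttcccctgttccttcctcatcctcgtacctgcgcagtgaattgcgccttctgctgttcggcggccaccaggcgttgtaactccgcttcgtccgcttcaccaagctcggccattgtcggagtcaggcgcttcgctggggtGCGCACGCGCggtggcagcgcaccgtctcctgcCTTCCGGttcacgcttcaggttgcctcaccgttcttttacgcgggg
Ndufa5: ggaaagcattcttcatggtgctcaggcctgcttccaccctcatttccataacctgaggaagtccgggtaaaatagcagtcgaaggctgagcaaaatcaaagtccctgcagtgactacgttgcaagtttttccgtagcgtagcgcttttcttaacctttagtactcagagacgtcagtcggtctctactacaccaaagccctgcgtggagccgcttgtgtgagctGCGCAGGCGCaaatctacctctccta
The letters searched on both strands were GCGCA, any base (N) and GCGC in a row for NRF1, CCGGAAG for the ETS family factor GABPA and AAGATGGC for YY1. Matches of different motifs did not overlap in any member window. In Cox6a1, which rose, NRF1 matches lay 162 and 117 bases before the start and an ETS match 16 bases before it. In Ndufb4, which fell, the NRF1 matches lay 191, 79 and 22 bases before the start. In Sdhd, which fell, the NRF1 match lay 79 and the ETS match 46 bases before the start, and Ndufa5, called both ways, had an NRF1 match at 26.

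Windows were found for 71 of the 87 member genes, 76 windows in all. NRF1 letters were in 12 of them (15.8%), against 5.67% of the 16534 windows of all genes on the array. ETS letters were in 13 (17.1%, against 9.48%) and YY1 letters in 1 (1.32%, against 1.55%). By direction of the call, NRF1 letters were in 2 of 9 windows of genes with only higher calls and 2 of 10 with only lower calls. They were in 6 of 55 with no call and in both Ndufa5 windows. The Ndufa5 windows overlap and hold the same NRF1 site, 190 and 26 bases before their starts, so it is counted in both. A match describes these letters only and was not tested for binding.

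Other genes of the pathway, in lists chosen with earlier results of these data known, were read by the brightest probe of each gene. The shares to set beside their counts are 8.02% of all probes and 18.3% of probes above background on at least 2 arrays. Of 40 further assembly factors 2 fell by limma's adjusted p. These were Higd1a, a factor linked to complexes III and IV, which was lower by at least 1.43-fold (limma adjusted p = 0.00186), and Sdhaf2, which attaches the flavin of complex II (difference -0.81, limma adjusted p = 0.0141). Of 15 genes of electron entry and coenzyme Q synthesis 2 fell. Sqor, which feeds electrons from sulfide into ubiquinone, read 10.83 and 11.22 against 9.04 and 9.61 (difference -1.70, limma adjusted p = 0.000877), and Coq2 differed by -0.73 (limma adjusted p = 0.0152). Of 6 genes of energy exchange, Vdac2, a channel of the outer membrane, fell by 0.80 on the log2 scale.

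The TCA cycle, which supplies the NADH and succinate, had 2 rises and 3 falls among 17 genes (median -0.21). Fh1 (fumarase, difference 0.76) and Dlst (0.73) rose, while Idh2 (-1.37), Dld (-0.87) and Suclg1 (-0.67) fell. Dlst and Dld belong to the same 2-oxoglutarate dehydrogenase complex and were called in opposite directions. Of 19 regulators of mitochondrial biogenesis, Ppargc1b, a coactivator of the pathway, rose (difference 0.51, limma adjusted p = 0.0278) and Mterf3 fell (difference -0.56). Of 21 genes of import and quality control, the receptor Tomm70a (-1.31) and the chaperonin partner Hspe1 (-0.85) fell by limma's adjusted p. These counts too stand beside 8.02% called among all probes and 18.3% among those above background on at least 2 arrays.

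Some markers of other liver cells were called, as were 8.02% of all probes and 18.3% of those above background on at least 2 arrays. Of 7 Kupffer cell and macrophage markers 2 fell (Adgre1 by 0.84 and Clec4f by 0.63 on the log2 scale). Their dimmer probes were not called. These differed by -0.30 and, above background on 0 arrays, by 0.13 for Adgre1, and by -0.12 for Clec4f. The log2 of the summed linear values of all 7 was 12.23 and 12.03 in control against 11.89 and 11.87 in KO. Such sums, here and below, weight the brightest markers most. Of 6 sinusoidal endothelial markers 1 fell (Clec4g by 0.94), with sums of 13.55 and 13.37 against 12.76 and 12.62 that are carried mostly by Clec4g itself (13.29 and 13.08 against 12.38 and 12.12). Among 9 hepatocyte markers, Ass1 rose by 1.29 and Serpina1a fell by 1.82, and the sums overlapped (17.88 and 17.97 against 17.86 and 17.90). These sums are carried mostly by Cyp2e1, Apoa1 and Ttr, which read 15.63 to 15.94 over the arrays. The highest mean of any probe was 16.0, and whether these markers were near saturation was not examined. The probes of 2 defining hepatocyte genes were dim, Alb above background on 1 array and Fgb on 0, while the other 7 were above it. Of 7 stellate and fibroblast markers 1 fell (Col3a1, with no KO array above background). The other Col3a1 probe, above background on 0 arrays, differed by 0.014. The sums of this list were 13.76 and 13.55 against 13.48 and 13.41. They are carried mostly by Dcn, which was not called (13.09 and 12.81 against 12.57 and 12.50). Of 4 red cell markers 1 fell (Hbb-bt), and of 3 cholangiocyte markers 1 rose (Sox9). None of the 6 lymphocyte, 7 striated muscle or 4 brown adipocyte markers passed the background limit on more than 1 array, and 1 of them, the lymphocyte marker Ms4a1, was called higher. The part of these markers in the differences of the chain was not tested.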

How the data were processed

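Total RNA of mouse liver was read on single-colour Illumina bead arrays, 2 per group. The authors deposited a linear intensity per probe without background subtraction, and log2 values of the same arrays normalised in a way that, like the scanner software, is not stated in the labels or file headers. Intensities were quantile-normalised, 16 was added and log2 taken. All 25697 probes were fitted without a block in limma 3.58.1 under R 4.3.3 (lmFit, trended eBayes), with Benjamini-Hochberg adjustment. The fit was also run on simulated arrays with independent errors. These did not carry the higher background of the KO arrays, and only probes with a mean above the background limit were changed. That run therefore cannot speak to calls near background. The background limit of 7.85 is the mode plus 3 SD. Where no array of a group passed it, the fold is a bound, in which a dim array counts as the lowest probe value that passes the limit. No member was near saturation. The arrays' number limits the precision. Symbols came from the platform annotation, and figures from matplotlib 3.10.9.

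Named were all called members, the brightest gene and the 2 uncalled members of smallest p per complex, genes whose probes disagreed, the isoforms of complex IV and 12 core subunits, though not each is printed. The members and lists were chosen with earlier results of these data known. Alternatives covered offset, background correction, scaling, the authors' log2 values, filters, variance model, replicate block, single arrays left out, threshold and the probe per gene. The brightness bands were added after the data were seen.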

Additional observations from a re-analysis of the deposited data

How the results depend on the processing

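With 2 arrays per group, counts of calls depended on single arrays. The count of members called higher (10) was 6 with 75th percentile scaling, 17 with the replicate number as a block, 2 at an adjusted p of 0.01, 21 at 0.1, 5 with the mean of all probes per gene, and 0 to 8 with 1 array left out. The count called lower (13) was 8 with the mean of all probes per gene, 14 with the block, and 7 to 13 with 1 array left out. Over all probes, 949 were called higher in the main fit. That count was 970 with 75th percentile scaling, 1440 with the block, 300 at an adjusted p of 0.01 and 1598 at 0.1. With 75th percentile scaling the member count thus fell while that of all probes did not. Lower calls over all probes were 1111 in the main fit and 1480 with the block. With the mean of all probes per gene, 529 of 16593 genes were called higher and 612 lower. The labels state no pairing, and deviations of same-numbered arrays correlated at -0.057. The median difference (0.07) was 0.10 after normexp and quantile normalisation, 0.11 after normexp and 75th percentile scaling, 0.13 for probes above background on at least 2 arrays, 0.16 on all 4, 0.11 for the brightest probe per gene, 0.06 with 75th percentile scaling alone (all probes 0.08), and 0.030 to 0.11 with 1 array left out. The cause was not tested.

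Of the 63 member probes that the naming rule covered, the sign turned for 11, none of them called in either fit. The other members were not examined for this. With 75th percentile scaling the differences were -0.029 for Ndufa13, 0.0053 for Ndufs1, -0.029 for Uqcrc2, -0.042 for Cox4i1, 0.0065 for Cox6a2, 0.0061 for Cox7b2, 0.048 for Cox8c and -0.28 for Atp5g3 (-0.20 with normexp as well). These are the fitted differences. That scaling moved the median of all probes to 0.08, and Ndufs1, Cox6a2, Cox7b2 and Cox8c still lay below that median. With 1 array left out the ranges were -0.029 to 0.17 for Ndufa13 ILMN_2649937, -0.27 to 0.38 for Ndufs4 ILMN_1234521, -0.16 to 0.018 for Sdhb ILMN_2769064, -0.031 to 0.13 for Cox4i1 ILMN_2600274, -0.041 to 0.17 for Cox6b2 ILMN_1229627, -0.19 to 0.032 for Cox7b2 ILMN_2634537 and -0.083 to 0.035 for Cox8c ILMN_2718562.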
